A study of Drosophila melanogaster with 2 samples.

Results

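The deep intronic peaks of D19B are the peaks whose summit lay inside a gene, in no exon of any transcript, and more than 5000 bp from the nearest annotated transcription start site (TSS). They were chosen by position alone, from the authors' list of peaks from the irreproducible discovery rate (IDR) step, which compares ranks in replicate lists. That list was the same as the 4309 regions of highest signal with both libraries combined. A peak in it thus need not rank alike in each library. Of 4309 peaks in that list, 436 met the rule (10.1%, 95% interval 9.23 to 11.1%). The other 3873 were 1923 TSS-proximal peaks, with a summit within 500 bp of a TSS, 1217 near intronic, 610 intergenic and 123 exonic peaks.

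The peaks come from chromatin immunoprecipitation with sequencing (ChIP-seq) on whole Drosophila melanogaster embryos of 0 to 24 h, with males and females pooled. The embryos carried a transgene for D19B joined at its C terminus to green fluorescent protein (GFP), and an antibody against GFP was used. There were 2 libraries, numbered biological replicates 2 and 3, both of this 1 group and of 1 transgenic line. What the line kept of its untagged D19B gene is not given in the labels. The chromatin was sonicated to 200 to 800 bp, and the control library of the authors' peak calling is not analysed here.

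D19B belongs to the zinc-finger proteins with a ZAD domain, a large insect family of DNA-binding proteins. Long introns are where many developmental genes of the fly keep their enhancers, and the first intron of a gene is a common place for them. In a whole embryo, a site bound in few cells and a site bound weakly in many cells cannot be told apart by the height of a peak. Signal below means the height of a peak above the control, a value of the authors that carries no scaling between lists.

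The following sequences carry the word ACAGGGTA at 4 of the 20 deep intronic peaks of highest signal, and they are shown with 2 other tall peaks for contrast. Each is the 101 bp centred on a summit, read 5′ to 3′ from release 6 of the assembly (dm6). Where a peak holds the word or its core AGGGTA, the strand with the word is shown, and capitals mark the word. At MYPT-75D the capitals mark AGGGTAT, and mamo, the tallest of all, holds none of these words within the window.
tara, chr3R:16250024-16250124, minus strand: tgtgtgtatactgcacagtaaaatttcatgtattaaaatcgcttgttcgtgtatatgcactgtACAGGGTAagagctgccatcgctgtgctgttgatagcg
eIF4EHP, chr3R:24099077-24099177, minus strand: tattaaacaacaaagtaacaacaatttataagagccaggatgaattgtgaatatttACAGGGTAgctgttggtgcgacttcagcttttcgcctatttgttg
Pits, chrX:12577968-12578068, minus strand: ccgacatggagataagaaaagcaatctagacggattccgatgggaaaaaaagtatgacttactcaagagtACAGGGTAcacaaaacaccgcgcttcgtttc
sima, chr3R:30092505-30092605, plus strand: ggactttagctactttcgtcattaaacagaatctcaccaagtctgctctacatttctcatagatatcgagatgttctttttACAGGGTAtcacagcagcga
MYPT-75D, chr3L:18634931-18635031, minus strand: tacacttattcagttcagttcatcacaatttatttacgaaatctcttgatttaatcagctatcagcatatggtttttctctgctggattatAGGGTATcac
mamo, chrX:13891002-13891102, plus strand: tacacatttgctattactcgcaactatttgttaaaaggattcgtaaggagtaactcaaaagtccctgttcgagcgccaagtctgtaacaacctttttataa

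In the 4 windows with ACAGGGTA the word lies to the right of the middle, so each summit sat on the 5′ side of the word. The same side was the more frequent across the deep intronic peaks, as described below.

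Deep introns held fewer peaks for their length than the genome as a whole. Deep intronic sequence made up 28.3 Mb of the 133.9 Mb of the 6 chromosome arms (21.1%), and it held 15.4 peaks per Mb, against 32.2 peaks per Mb over the arms. The authors' list of 30000 regions of both libraries together, of which the 4309 peaks are those of highest signal, held 5456 deep intronic regions. Of these, 7.99% were in the IDR list (95% interval 7.29 to 8.74%), against 14.4% of all listed regions and 15.8% of those not deep intronic. The share was 14.2% for near intronic, 9.50% for intergenic, 5.78% for exonic and 25.8% for TSS-proximal regions. The intervals (Clopper-Pearson, exact) take in counting error and nothing else. Peaks are not replicates of a condition, so no test between classes was made.

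**Figure D1:**
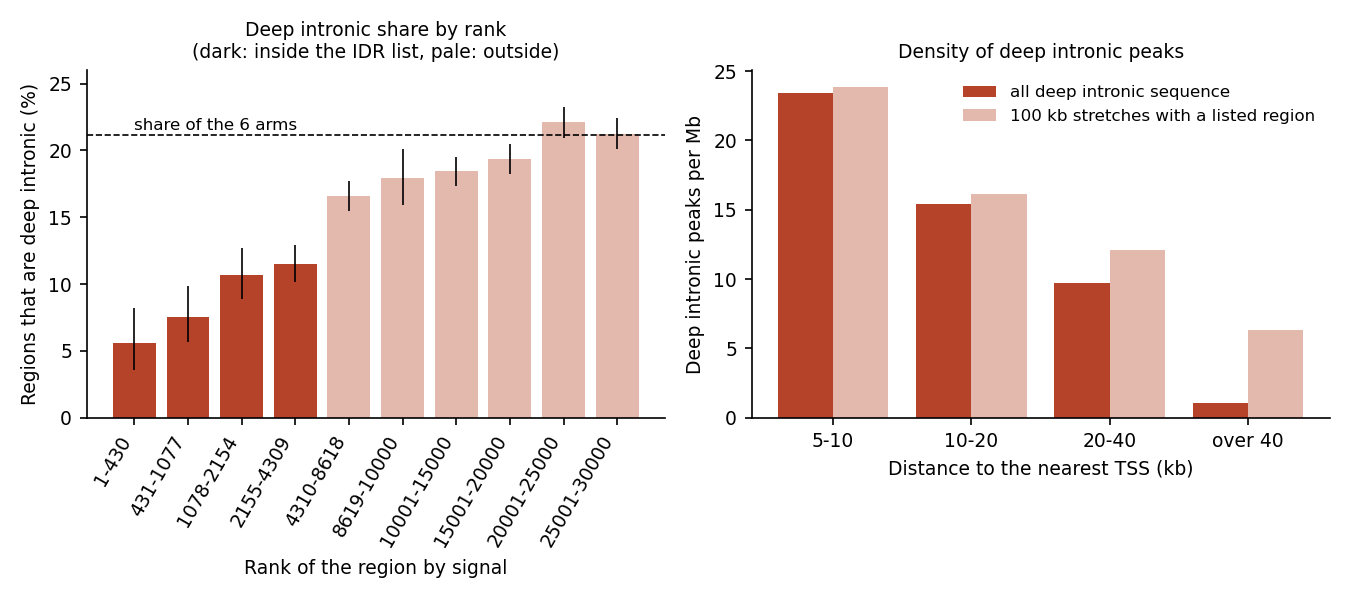
Left, the percentage of regions that are deep intronic (y axis) in bins of rank by signal (x axis), dark inside and pale outside the IDR list, with 95% exact intervals and a dashed line at the 21.1% of the arms that is deep intronic. Right, deep intronic peaks per Mb (y axis) by distance to the nearest TSS (x axis), over all deep intronic sequence and over 100 kb stretches with at least 1 listed region. The share is 5.58% in the top bin and near the dashed line in the lowest ranks, and the density falls with distance in both sets of bars.

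The deep intronic share grew as rank by signal fell. Deep intronic peaks were 24 of the 430 tallest (5.58%, 95% interval 3.61 to 8.19%), 7.57% of ranks 431 to 1077, 10.7% of ranks 1078 to 2154 and 11.5% of ranks 2155 to 4309. Below the IDR list the share went on to 16.6% in ranks 4310 to 8618 and to 22.1% in ranks 20001 to 25000, next to the 21.1% of the arms. The lowest-ranked regions thus held deep introns at about their share of the genome.

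The median signal of deep intronic peaks was 180.9 (quartiles 140.8 and 277.0, range 117.6 to 1974), against 201.8 for the other 3873 peaks. The median was 193.1 for near intronic, 180.8 for intergenic, 177.8 for exonic and 218.3 for TSS-proximal peaks. Of the 436, 249 had a signal under 200 (57.1%), against 49.4% of the other peaks, while 35 were over 500 and 2 were over 1000. Across the 436 peaks, which come from the same list, the Spearman correlation between signal and distance to the TSS was 0.0063.

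The tallest deep intronic peak lay in mamo, a gene for a zinc-finger BTB protein needed in the germ line. Replicate 2 gave it a signal of 1301 and replicate 3 one of 682, and with the libraries combined it had 1974 and a rank of 50 among all peaks. The summit was 42291 bp from the nearest TSS, one of only 5 members beyond 40 kb. Next came tara, whose product acts with trithorax group proteins and in the cell cycle, with 1376 in replicate 2, 433 in replicate 3 and 1809 in the combined list. These were the pair above 1000.

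The third was in Tet, a gene for a dioxygenase of methylated bases, with 627 in replicate 2, 352 in replicate 3 and 983 combined. The peak in eIF4EHP, which encodes a cap-binding repressor of translation, had 598 in replicate 2, 320 in replicate 3 and 915 combined. The peak in wts, the Hippo pathway kinase gene, had 614, 262 and 872 in that order. These 3 summits lay 14863, 6636 and 5811 bp from a TSS.

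The peak in stx, a gene that regulates Polycomb, had a signal of 861. MYPT-75D, for a myosin phosphatase subunit, had 827. The peak in simj, for a subunit of the NuRD chromatin complex, had 817, and that in CG32486 had 776. All 4 lay on X or 3L.

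The remaining 10 of the tallest 20 had signals from 644 to 715. Their hosts included regulators of transcription: luna (715), a Krüppel-like factor gene, Hr3 (708), a nuclear receptor gene that shares its peak with CG46321 and CG12912, elB (650.0), a zinc-finger gene, sima (651), the fly HIF-alpha gene, and Myc (644). The Myc peak also lay inside lncRNA:CR44999. The others were a further peak in tara (704), Pits (701), the translation initiation factor gene eIF5B (679), CG43759 (677), and fra (652), the Netrin receptor gene.

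Each of the 20 had a summit within 100 bp in both libraries, and 12 lay in a first intron. Signal ran from 339 to 1376 in replicate 2 and from 185 to 682 in replicate 3. It was higher in replicate 2 for 19 of the 20. The exception was CG43759, with 339 in replicate 2 and 341 in replicate 3.

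**Figure D2:**
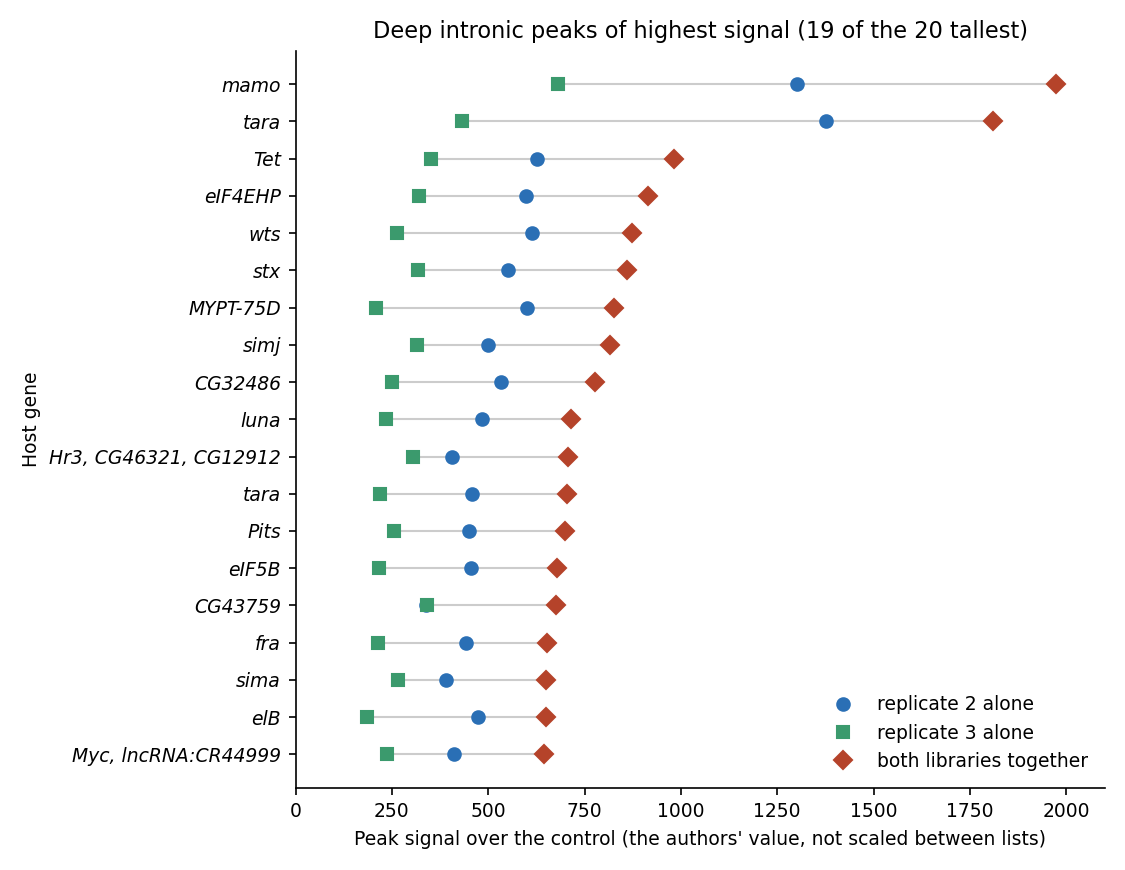
Signal over the control (x axis, the authors' value, not scaled between lists) of 19 of the 20 tallest deep intronic peaks by host gene (y axis), with circles for replicate 2 alone, squares for replicate 3 alone and diamonds for both libraries together. The peaks in mamo (1974) and tara (1809) stand to the right of all others shown, and the 2 single-library symbols coincide for CG43759.

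The libraries shared most deep intronic peaks, which the choice of peaks favours. The IDR list holds the 4309 regions of highest signal with the libraries combined, and the list of each library holds 30000 regions. A summit lay within 100 bp for 418 of the 436 in replicate 2 and for 412 in replicate 3. Both libraries had one for 394 (90.4%, 95% interval 87.2 to 92.97%), against 86.2% of the other peaks and 86.7% of all 4309. Near intronic (89.6%) and intergenic peaks (89.8%) were close to this, and TSS-proximal (83.3%) and exonic peaks (81.3%) were lower. There were 24 with a summit in replicate 2 only, 18 in replicate 3 only and 0 in neither.

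Signal was the higher in replicate 2 for 351 of the 394 (89.1%), against 92.6% of other peaks in both libraries. The median ratio of replicate 2 to replicate 3 was 1.90 (quartiles 1.39 and 2.48) for deep intronic peaks and 1.91 for the others. Across the 394 peaks, which share the same 2 libraries, the Spearman correlation of signal was 0.535 and Pearson's r on log10 values was 0.637. Across the 3340 other peaks in both libraries the Spearman correlation was 0.707 and r 0.793. Combined signal reached 15866 among all other peaks and 1974 among deep intronic ones. Whether this wider range raised the correlation was not tested. The intergenic peaks had a Spearman correlation of 0.536 and an r of 0.622, close to the deep intronic ones.

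The combined height of a deep intronic peak was close to the sum of its heights in the libraries. The sum divided by the combined signal had a median of 1.00 (quartiles 0.980 and 1.02, 394 peaks), so the rank of a peak leans on replicate 2, whose values are the larger. In 43 peaks replicate 3 was the higher. The ratio was outside 0.8 to 1.2 for 5 peaks, in Atg1, MYPT-75D, Eip75B, cic and mtgo, named for their small number. In Atg1, an autophagy kinase gene, the combined signal was 513 with 71.9 in replicate 2 and 181 in replicate 3.

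A summit missing from a library did not always mark a missing peak. In cic, a gene for a repressor acting downstream of receptor tyrosine kinases, the peak of signal 561.9 had 227.6 in replicate 3, while replicate 2 lacked a summit within 100 bp. A second summit less than 250 bp away had a combined signal of 135, and replicate 2 had 345 there. In all, 46 of the 436 summits had another member within 250 bp, as 23 pairs at least 199 bp apart. Merging summits within 250 bp gave a share of 91.5% in both libraries.

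**Figure D3:**
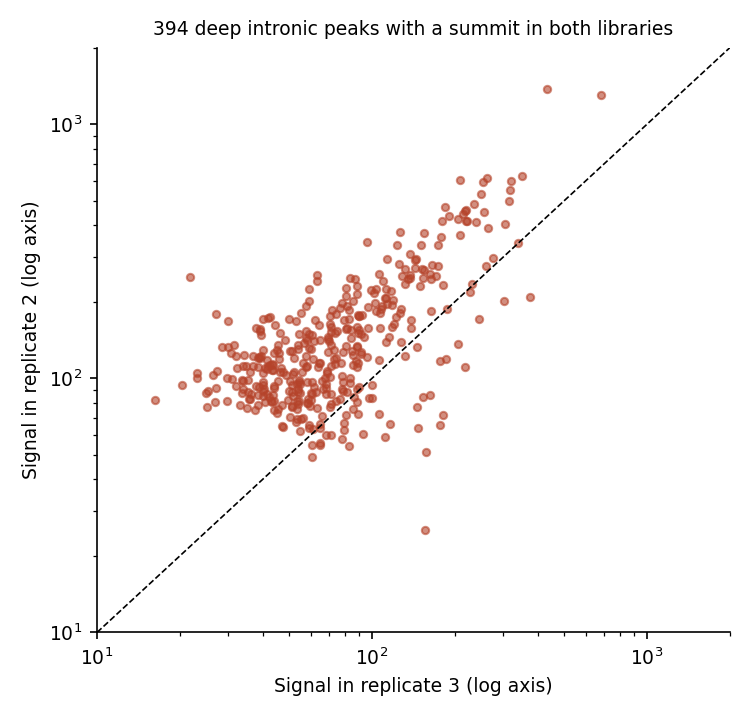
Signal in replicate 2 (y axis, log) against signal in replicate 3 (x axis, log) for the 394 deep intronic peaks with a summit in both libraries, each point 1 peak, with a dashed line where the 2 are equal. Most points (351) lie above the line, and the cloud is broad at low signal and narrower at the top.

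The deep intronic peaks lay closer to gene starts than deep intronic sequence does. Their median distance to the nearest TSS was 8284 bp (quartiles 6548 and 13208), against 12384 bp for every 100th base of deep intronic sequence and 9761 bp for the 5020 listed deep intronic regions outside the IDR list. There were 259 peaks between 5 and 10 kb, 132 between 10 and 20 kb, 40 between 20 and 40 kb and 5 beyond. Per Mb these were 23.4, 15.4, 9.73 and 1.10 peaks. The 5 beyond 40 kb, named for their small number, were in mamo (signal 1974), luna (405), Snoo (235), CG43759 (124) and dpr8 (118).

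Part of the far sequence held no listed region at all. Stretches of 100 kb without any of the 30000 regions made up 5.15 Mb of deep intronic sequence, and without them the density was 18.8 peaks per Mb. By distance it was then 23.9, 16.2, 12.1 and 6.32 peaks per Mb, so the order of the 4 bins stayed. The share of listed deep intronic regions in the IDR list was 9.06%, 7.06%, 6.34% and 5.15% over the same bins, the last with 5 of 97 regions.

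The rule has a threshold at 5000 bp. Just inside it were peaks in GEFmeso (5011 bp, signal 171), lilli (5012 bp, 366) and Lrch (5019 bp, 289). Just outside were peaks in shep (4988 bp, 254), tara (4981 bp, 245) and Neto (4979 bp, 149). The pair of sets overlapped in signal.

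First introns held 236 of the 436 peaks (54.1%, 95% interval 49.3 to 58.9%), a peak being counted when it lay in the first intron of at least 1 transcript of its host. They made up 31.2% of deep intronic sequence, and 44.6% of the listed regions outside the IDR list lay in them. The excess over sequence was present at each distance: 59.1% of peaks against 42.6% of sequence at 5 to 10 kb, 49.2% against 32.2% at 10 to 20 kb, and 16 of 40 peaks against 22.7% of sequence at 20 to 40 kb. Beyond 40 kb there were 2 of 5 peaks. Against listed regions outside the IDR list, whose first-intron shares were 51.3%, 40.2% and 33.2%, the differences were smaller.

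The introns themselves were long. The shortest intron around a summit had a median length of 18874 bp, against 17909 bp for listed regions outside the IDR list and 21189 bp for deep intronic sequence. The nearest exon was a median of 4834 bp away, against 4369 and 4728 bp. The longest host gene had a median length of 48526 bp, against 56498 bp for listed regions outside the IDR list and 74230 bp for deep intronic sequence. The rule itself requires a long gene, and the hosts of the peaks were shorter at the median than the genes that offer most of the deep intronic sequence.

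Chromosome X had 116 of the 436 peaks (26.6%) on 18.97% of the deep intronic sequence, or 21.6 peaks per Mb (95% interval 18.3 to 25.2). The density was 18.1 on 2L (14.5 to 22.2), 13.7 on 3L (11.0 to 16.8), 13.5 on 2R (10.6 to 16.8) and 12.6 on 3R (10.5 to 14.9), and the dot chromosome 4 had 1 peak. Without 100 kb stretches that lack a listed region it was 22.0 on X, 18.5 on 2L, 16.9 on 3L, 18.6 on 2R and 18.6 on 3R. Among listed deep intronic regions, 10.2% of those on X were in the IDR list, against 7.29% on 2L, 8.87% on 2R, 6.76% on 3L and 7.42% on 3R.

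Of 1812 genes with deep intronic sequence, 278 held a deep intronic peak (15.3%), and 268 of these hosts were protein-coding. Each of 408 peaks lay in 1 gene, 27 in 2 overlapping genes and 1 in 3. While 178 hosts held 1 peak, 100 held at least 2. Those 100 genes took in 272 of the 436 peaks (62.4%). With summits within 250 bp merged, the share in hosts of at least 2 was 58.25% (240 of 412).

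Genes with more deep intronic sequence were hosts more often, but held fewer peaks for its length. Among protein-coding genes with up to 10 kb of deep intronic sequence, 6.98% were hosts, and this share was 20.7% at 10 to 20 kb, 28.8% at 20 to 40 kb, 41.0% at 40 to 80 kb and 47.8% above. Peaks per Mb over the same bins were 28.0, 23.5, 19.3, 14.4 and 5.39. Without 100 kb stretches that lack a listed region the first 4 values were 28.0, 23.7, 19.5 and 14.6, and the last was 12.5. The 5 genes that offer most deep intronic sequence held 0 peaks: Myo81F (1905 kb), Pzl (690 kb), lovit (417 kb), CG17684 (378 kb) and DIP-lambda (372 kb). Most of that sequence lay in 100 kb stretches without a listed region. Outside such stretches there were 98.1 kb in Pzl, 62.8 kb in lovit and 0 kb in the others, so their lack of peaks says little. These 5 genes were named after their values were seen.

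**Figure D4:**
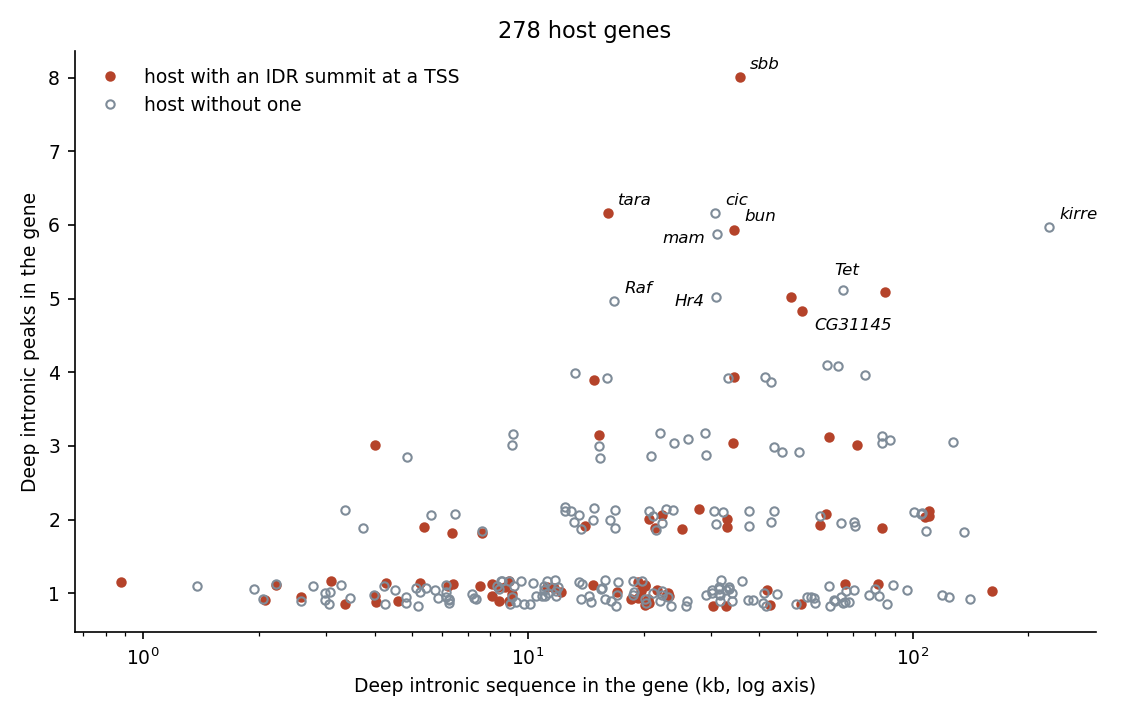
Number of deep intronic peaks (y axis, whole numbers with small vertical shifts so that points do not hide each other) against kb of deep intronic sequence (x axis, log) for the 278 host genes, filled where an IDR summit also lies within 500 bp of a TSS of the gene. The gene sbb holds 8 peaks on 35.6 kb, while kirre holds 6 on 226 kb.

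The gene with most deep intronic peaks was sbb (scribbler, also called brakeless), which encodes a transcriptional corepressor. It held 8 on 35.6 kb of deep intronic sequence, all in a first intron, with signals from 146 to 627. The tallest had 417 in replicate 2 and 220 in replicate 3. The 8 summits spanned from 12753 to 22032 bp from the nearest TSS, and the closest neighbours were 1299 bp apart. A further peak of signal 500.7 lay at a TSS of the gene.

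The genes tara, mam, cic, bun and kirre held 6 each. In tara, on 16.1 kb of deep intronic sequence, they had signals of 183, 191, 495, 704, 1809 and 267 in order of coordinate. In mam, which encodes the Notch coactivator Mastermind, signals ran from 131 to 621.6, and in cic from 135 to 561.9. In bun, a TSC22-family regulator gene, they ran from 119 to 314. In kirre, an immunoglobulin adhesion gene of myoblast fusion, with 226 kb of deep intronic sequence, the 6 summits spanned 162 kb and their signals ran from 131 to 279.

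The genes Tet, Raf, Hr4 and CG31145 completed the first 10, with 5 each. Fur1 and sdk also held 5 and came after them by summed signal. In Tet the 5 summits formed 3 places, since 2 pairs lay 202 and 204 bp apart, and the place without a side summit had 415 in replicate 2, 222 in replicate 3 and 636 combined. In Raf, the MAP kinase pathway kinase gene, signals ran from 142 to 422, and 1 of its 5 peaks had no summit in replicate 2. In Hr4, an ecdysone-regulated nuclear receptor gene, the tallest peak (313) was the higher in replicate 3, with 119 in replicate 2 and 186 in replicate 3. CG31145 had a TSS peak of 1289, above each of its deep intronic peaks (119 to 276), of which a pair lay 203 bp apart.

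Some peaks of the same gene were near each other. Of the 436, 80 lay within 1 kb of another member of the same gene, 46 of them as the pairs within 250 bp described above. At 250 bp to 5 kb, 141 had another member of the same gene, while the median distance to the nearest member was 14.2 kb. The peaks may therefore not be independent of each other in position. The number of neighbours that random placement would give was not worked out.

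Hosts more often had a TSS peak as well. An IDR summit lay within 500 bp of a TSS of 79 of the 278 hosts (28.4%), against 289 of 1534 other genes with deep intronic sequence (18.8%) and 20.3% of all 1812. The share was higher in hosts in each length bin: 32.9% against 20.2% up to 10 kb, 20.7% against 19.4% at 10 to 20 kb, 33.3% against 18.7% at 20 to 40 kb, 23.3% against 9.68% at 40 to 80 kb and 31.8% against 8.33% above. At 10 to 20 kb the 2 shares were nearly equal. The remaining 199 hosts had a deep intronic peak and no TSS peak.

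The hosts were set against 9 lists of genes by function, which hold 86 of the 278 hosts and 150 of the 436 peaks (34.4%). The other 192 hosts are in none of the lists, and a list does not hold every gene of its function. Among 42 zinc-finger, BTB and other long transcription factor genes with deep intronic sequence, 15 were hosts (35.7%). The share was 15.3% of all genes with deep intronic sequence, long or not. They held 34 peaks, or 34.1 per Mb, led by luna (715), elB (650.0) and sbb (627). The zinc-finger BTB gene mamo (1974) is not in this list. Of the listed deep intronic regions of the 42 genes, 10.7% were in the IDR list, against 7.99% of all. The 15.3% is not matched for length, for this list or those below. Host shares of protein-coding genes ran from 6.98% with up to 10 kb of deep intronic sequence to 47.8% with over 80 kb.

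The ecdysone and nuclear receptor genes had 5 hosts of 15 (33.3%) and 14 peaks, or 42.9 per Mb, and 11.9% of their listed regions were in the IDR list. Ecdysone is the steroid hormone of insect moulting, and its response runs through a cascade of nuclear receptors. The tallest peaks were those in Hr3 (708), Eip75B (505.9), an early ecdysone response gene, and Hr4 (313). The Eip75B gene held 4 peaks and Hr4 held 5. The remaining hosts, named because there are so few, were ftz-f1 (222), another nuclear receptor gene, with 3 peaks, and EcR (179), the ecdysone receptor gene, with 1.

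Signalling genes had 22 hosts of 67 (32.8%) and 36 peaks, or 34.8 per Mb, led by mam (621.6), the FGF ligand gene ths (446.0) and the adenylyl cyclase gene rut (425). Their share of listed regions in the IDR list was 8.33%, close to that of all. The Hippo pathway kinase gene wts (872) is not in this list. The chromatin regulators in their list had 5 hosts of 18 (27.8%), with 1 peak each. On the 0.057 Mb they offer this was 88.4 peaks per Mb, and 16.7% of their 30 listed regions were in the IDR list, both the highest of the 9 lists but from 5 peaks. The tallest were in Mi-2 (603.5), the NuRD ATPase gene, Su(z)2 (577), a Polycomb group gene, and jumu (242), a forkhead gene. The other hosts in the list were Psc (166), also of the Polycomb group, and HDAC4 (157), a histone deacetylase gene, named because the list holds only 5. It leaves out the hosts simj (817), stx (861) and JIL-1 (325), a chromatin kinase gene, so it does not cover all chromatin genes.

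Ion channel and neurotransmitter receptor genes had 4 hosts of 59 (6.78%) and 4 peaks on 1.17 Mb, or 3.41 per Mb, and 2.25% of their listed regions were in the IDR list, each the lowest of the 9 lists. The peaks were those in the calcium channel subunit gene Ca-beta (323), the acetylcholine receptor gene nAChRalpha3 (230), the T-type calcium channel gene Ca-alpha1T (155) and the potassium channel gene Sh (123). The last was named because the list holds only 4 hosts.

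Axon guidance and adhesion genes had 20 hosts of 97 (20.6%), above the share of all genes, which is not matched for length. On the 3.13 Mb they offer they had 9.91 peaks per Mb, below the 15.4 of all deep introns. Of their listed regions 5.62% were in the IDR list. The tallest were in fra (652), NetA (467), the gene of a ligand of the fra receptor, and the teneurin gene Ten-a (408). RNA-binding genes had 4 hosts of 22, 8.22 peaks per Mb and 3.53% of listed regions in the IDR list, led by the translational repressors brat (378) and pum (197) and by the STAR-family gene how (177). The other host was Rbp6 (131), named because the list holds only 4.

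Patterning transcription factor genes had 8 hosts of 49 (16.3%), near the background, with 17.4 peaks per Mb and 6.84% of listed regions. Their tallest peaks were in the homeobox gene ct (532), the Hox gene Antp (300.9), with 4 peaks, and the ETS factor gene pnt (224). Cytoskeleton and muscle genes had 6 hosts of 37 (16.2%) with 17.5 peaks per Mb and 6.25% of listed regions. Their tallest were in the polarity gene scrib (186), the Z-disc gene Zasp52 (182) and the actin nucleator gene spir (174). Some genes stand in more than 1 list (8 of 651), and the lists differ in the sequence they offer.

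The words counted here were chosen with earlier results or word rankings on these peaks known, so their counts against flanks are a description. The 6 letters AGGGTA, on either strand, were in 62 of 436 summit windows of 101 bp (14.2%, 95% interval 11.1 to 17.9%) and in 7 windows centred 500 bp away. They were in 10.8% of the other peaks (95% interval 9.86 to 11.8%), 11.2% of all peaks, 3.00% of the 2168 lowest-ranked deep intronic regions and 2.47% of 280041 windows that tile deep intronic sequence. Near intronic and intergenic peaks had 14.1% and 13.6%, and TSS-proximal peaks 7.38%. The deep intronic share was thus close to that of other peaks away from TSSs.

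The full word ACAGGGTA, which contains AGGGTA, was in 15 windows (3.44%, 95% interval 1.94 to 5.61%) and in 0 of the 436 flanks. Taking 3 counts as the upper limit for 0, which is not an exact interval, allows up to 0.688% of flanks. The word was in 2.92% of other peaks, 2.97% of all peaks, 0.277% of the lowest-ranked deep intronic regions and 0.148% of tiles. Near intronic and intergenic peaks had it in 4.35% and 3.77%, both above the deep intronic share, and TSS-proximal peaks in 1.56%. Deep intronic peaks with the word had a median combined signal of 260, against 180.4 without it. Among peaks with a summit in both libraries, the median in replicate 2 was 249 for the 13 with the word and 120.2 for the 381 without it. In replicate 3 the same peaks had medians of 144 with the word and 68.7 without it. Over all deep intronic peaks with a summit in replicate 2, the medians were nearer, 138.9 with the word and 120.0 without it. Over all those with a summit in replicate 3 they were 144 and 69.0.

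The overlapping word GGGTAT was in 78 windows (17.9%) and 14 flanks, against 13.7% of other peaks and 3.23% of tiles. Near intronic, intergenic and TSS-proximal peaks had it in 16.4%, 18.9% and 9.83%. Counted together, 97 windows (22.2%) held AGGGTA or GGGTAT, 43 held both, and 17 flanks held either. Of the tallest 20, 7 held either. More than 3 in 4 deep intronic peaks held neither within 50 bp of the summit.

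The letters next to AGGGTA were uneven too. Over the 50 copies in deep intronic windows with all neighbours inside, the base just before the core was C in 48.0%, the one before that A in 56.0% and the third T in 62.0%. The base just after it was T in 70.0%. The same letters had shares of 21.1%, 37.1%, 30.6% and 40.1% in tiles and of 42.7%, 53.1%, 57.5% and 67.9% in other peaks. Of the copies within 50 bp of a summit in a single host, 32 lay on the strand of the gene and 32 on the other.

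Summits lay more often on the 5′ side of the word than on its 3′ side. Within 150 bp of deep intronic summits there were 194 copies of AGGGTA, and the summit was 5′ of the word, read along the strand that spells it, for 131 (67.5%, 95% interval 60.4 to 74.1%). For other peaks the share was 61.9% of 1122 copies. For ACAGGGTA it was 31 of 39 copies at deep intronic peaks (79.5%) and 68.6% of 255 at other peaks, so both sets leaned the same way. The density of AGGGTA was 1.48 copies per kb within 150 bp of deep intronic summits and 0.367 between 150 and 300 bp.

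**Figure D5:**
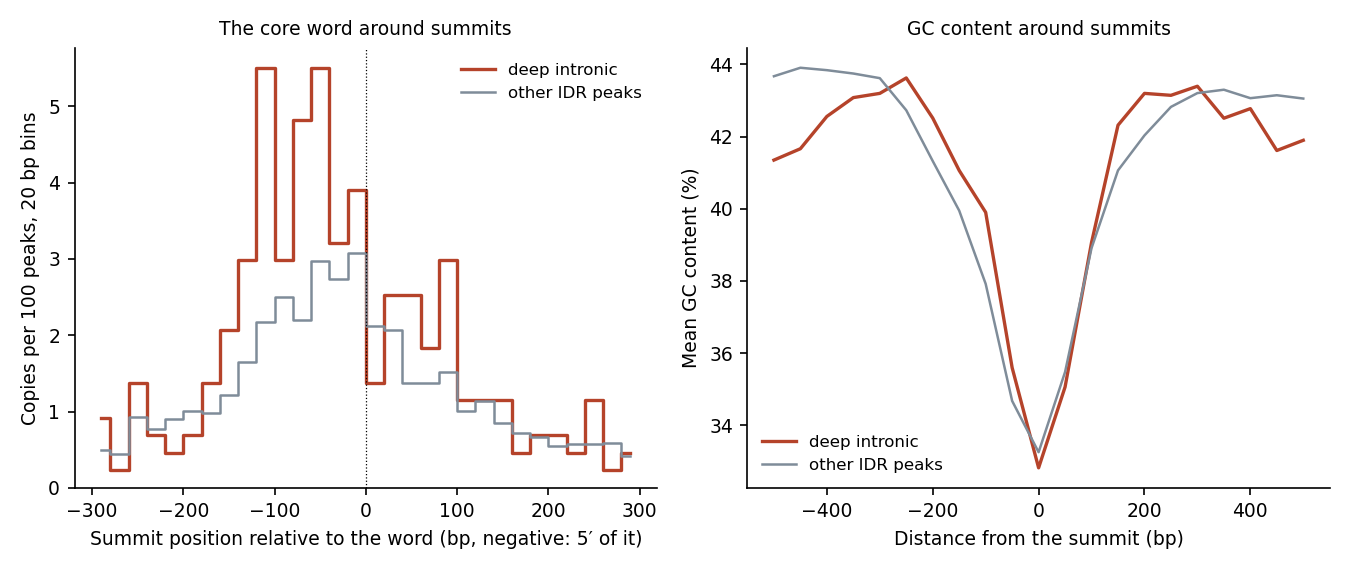
Left, copies of AGGGTA per 100 peaks (y axis, bins of 20 bp) by the position of the summit relative to the word along the word's own strand (x axis, bp, negative where the summit is 5′ of the word). Right, mean GC content (y axis, percent, windows of 51 bp) by distance from the summit (x axis, bp). Deep intronic peaks and the other IDR peaks share the lean to the left, with 131 of 194 deep intronic copies within 150 bp there, and both have a GC minimum at the summit.

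Summits lay in AT-rich stretches. The median GC content of deep intronic summit windows was 33.7%, against 41.6% in their flanks and 40.6% both in tiles of deep intronic sequence and in the lowest-ranked deep intronic regions. GC was lower at the summit than in its flank for 328 of 436 peaks (75.2%). Other peaks had a median of 32.7% at summits and 43.6% in flanks.

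Among words with known binders, TATAAA, the TATA box word, was in 86 windows (19.7%) against 53 flanks, in a setting where summits are AT-rich. The share of other peaks with TATAAA was 22.9%. The insulator word TATCGATA was in 1 window, that of kek5 (signal 206), and 0 flanks, against 1.08% of other peaks. Its core CGATA was in 45 windows and 44 flanks, and GAGAG, the site of the GAGA factor, in 41 windows and 57 flanks. AATAGT, a word with no named binder here, was in 57 windows and 14 flanks, and in 9.79% of other peaks.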

How the data were processed

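Per the file records, the authors called peaks and background regions on dm6 for each library and for both together, 30000 regions per list, and made the IDR list from these. Their aligner and caller were not given in the sources used here, nor was the IDR threshold. Signal is the authors' deposited height over the control. The −log10 q and the summit offset are also the authors' deposited values. Read depth is unknown. Lists on dm3 were not used.

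Genes came from Ensembl release 115, without transposable elements, and sequence from assembly release 6, which has the coordinates of dm6. Positions are 1-based. Words were counted on both strands in windows 50 bp each side of a summit. Flanks were centred 500 bp away, with sides alternating. Tiles are adjacent windows of the same size. Similar members were sought with BLAST+ 2.17.0. Other steps used Python 3.11.15 with matplotlib 3.10.9, pandas 2.3.3, scipy 1.17.1 and numpy 2.4.6, and were tested on simulated data.

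With 1 group of 2 libraries no test between groups was possible, so all comparisons are counts, medians and exact intervals. The genes named are hosts of the 20 tallest peaks, the 10 genes with most peaks, the 3 tallest of each of 9 lists, and 3 peaks on each side of the distance limit; 1 host among the tallest is not reported here. Members and lists were chosen with earlier results of these data known.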

Additional observations from a re-analysis of the deposited data

How the results depend on the processing

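Of the alternatives run, 54 moved a value by less than its counting interval and 31 by more. Leaving out a library (the 4309 tallest regions of the other) gave deep intronic shares of 9.84 to 11.97%, 14.99 to 18.25 peaks per Mb, first-intron shares of 53.1 to 54.25%, shares in hosts of at least 2 peaks of 60.85 to 65.5%, ACAGGGTA in 2.519 to 2.594% of windows, median GC of 33.66 to 34.65%, and median signals, on unscaled lists, of 60.3 to 121.8. A limit of 2500 bp gave a share of 18.08%, 20.2 peaks per Mb, 9.095% of listed regions in the IDR list, 61.62% in first introns and 69.32% in hosts of at least 2. A limit of 10000 bp gave 4.108%, 10.28, 6.813%, 46.89% and 55.93%. In the 2154 tallest peaks, the share was 8.728%, the density 6.648 per Mb, the median signal 300.9, the share in both libraries 97.34%, the share in hosts of at least 2 peaks 45.74%, and the median GC 31.68%. Keeping transposable elements among the genes gave a share of 8.54% and 16.87 peaks per Mb. A summit match of 50 bp gave 69.72% in both libraries and one of 250 bp gave 96.33%. Windows of 100 bp each side gave ACAGGGTA in 6.422% and a median GC of 35.32%. Leaving out 100 kb stretches without a listed region, an alternative chosen after seeing the data, gave 18.85 peaks per Mb, and it moved the density of chromosomes 2R, 3L and 3R and of genes with over 80 kb past their intervals, while no gene list moved that far. The cause of these shifts was not tested, except where the setting changes the set by construction, as the distance limits, the tallest peaks and the window do. No paired analysis was possible because both libraries belong to 1 group. Peak lists without read depth give no error per peak beyond the values of 2 libraries.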

Other observations

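Of the 333 words of 8 letters present in at least 10 deep intronic summit windows, a word and its reverse complement being 1, 8 were in 0 of the 436 flanks. ACAGGGTA was among them, in 15 windows, as was ACCCTGTA, in 15, whose reverse complement overlaps it. TAGGGTAT, in 13, shares the core AGGGTA but has another letter before it, so it marks other copies of the core. Another was GTAGCATT, in 11 deep intronic windows (2.52%, 95% interval 1.27 to 4.47%) against 8 of 3873 other peaks (0.207%), 0.138% of the lowest-ranked deep intronic regions and 0.270% of tiles. It was picked after all words had been ranked on these peaks, so its excess is a description. The 11 peaks lay in 11 places. Their signals ran from 120 in REPTOR to 384 in pyd, a junction scaffold gene, and others were in the chromatin kinase gene JIL-1 (325), jumu (242) and cic (135). These genes were named after their values were seen.

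Sequence shared between distant members was rare. Among windows of 150 bp each side of the summits, 5 members had an alignment of at least 80 bp to another member not next to it, at 68.7 to 79.8% identity. They lay in Ten-a (signal 408), CG33298 (405), kek5 (206), CG6040 (161) and PMCA (122). Of these, PMCA is the single deep intronic peak on chromosome 4, and it had a summit in replicate 2 (58.2) and none within 100 bp in replicate 3. Annotated transposable elements held 6 of the 436 summits.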
